A study of Rattus norvegicus with 24 samples.

Results

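In the overloaded plantaris, a calf muscle of the rat, 108 of the 31998 genes in the deposited count table were at 0.6 or less of their control level in both of the rat lines studied. The genes were chosen on the values themselves. Each had a mean of at least 2 CPM (estimated counts of the gene per 1000000 counts of the library) in the control libraries of both lines. Each also had a mean overload CPM of at most 0.6 times the mean control CPM in both lines. Of the 11547 genes over the CPM minimum, these 108 are 0.935%. The working name of the set speaks of halving, but only 30 of the 108 were at or below 0.5 in both lines, so the set is called here the reduced genes. The deposited table gives Ensembl gene IDs without gene names, and 0 of them matched the reference table of names used here, so genes are given by ID and their roles are not described. For the same reason no promoter or other sequence could be tied to a reduced gene, and markers of muscle or of other cell types could not be read.

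All rats were females aged 14 months of generation 19 of the HRT or LRT line. The lines were bred for high (HRT) or low (LRT) gains in running capacity with endurance training. In functional overload (FO) the gastrocnemius and soleus of one leg are removed, so that the plantaris takes over their load. The plantaris was taken after 14 days. Each line gave 6 control and 6 overload libraries, which makes 4 groups. The labels carry the same surgical text for every sample and do not say whether a control muscle came from an unoperated rat or from the other leg of an overloaded one. Nothing in them says that the libraries of a group are separate animals, and p-values then measure only the spread between these samples.

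Skeletal muscle adapts to sustained extra load by growth of its fibres, by remodelling of the matrix around them and by a shift of fibres towards slower contraction. During this time immune, endothelial and connective tissue cells multiply in the muscle. Messenger RNAs can take a smaller share of the pool because their own genes are less active, because they decay faster, or because other messages rise around them. In these whole-muscle libraries, fewer cells of a type and less RNA per cell cannot be told apart.

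Library totals ran from 26997674 to 34254957 estimated counts, and 16661 genes had enough counts to be tested. All 108 reduced genes were among these. RNA integrity numbers (RIN) ran from 8 to 8.6 in HRT control, from 8.1 to 8.5 in LRT control, from 8.6 to 9.4 in HRT overload and from 8.2 to 8.9 in LRT overload. RIN was thus mostly higher in overloaded muscle, and its part in the choice of the genes was not tested. Replicate 3 of LRT control stood apart from the other 5 libraries of its group for 16 of the 108 genes, by Dixon's test, which flags about 1 group in 20 by chance. It was the highest library for 14 of these and the lowest for 2. Without this library the rule found 116 genes, 99 of them among the 108.

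The rule left genes whose ratios were mostly lower in HRT than in LRT. Overload to control ratios of mean CPM ran from 0.178 to 0.59996 in HRT, with a median of 0.485. In LRT they ran from 0.188 to 0.59962, with a median of 0.530. Over all genes above the CPM minimum the median ratio was 1.14 in HRT and 1.09 in LRT. The ratio was at or below 0.5 in both lines for 30 genes, in HRT alone for 35, in LRT alone for 7 and in neither line for 36. It was lower in HRT for 87 genes and lower in LRT for 21, while over all genes above the CPM minimum it was lower in HRT for 37.2%. For 78 of the 108 the lines' ratios lay within 0.1 of each other. A ratio lower by more than 0.1 was found in HRT for 27 genes and in LRT for 3. These ratios were what chose the genes and are given as a description. The threshold was met by 325 genes in HRT (2.81% of those over the CPM minimum) and by 135 in LRT (1.17%). The part of the rule in the difference between the lines' ratios was not tested.

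**Figure D1:**
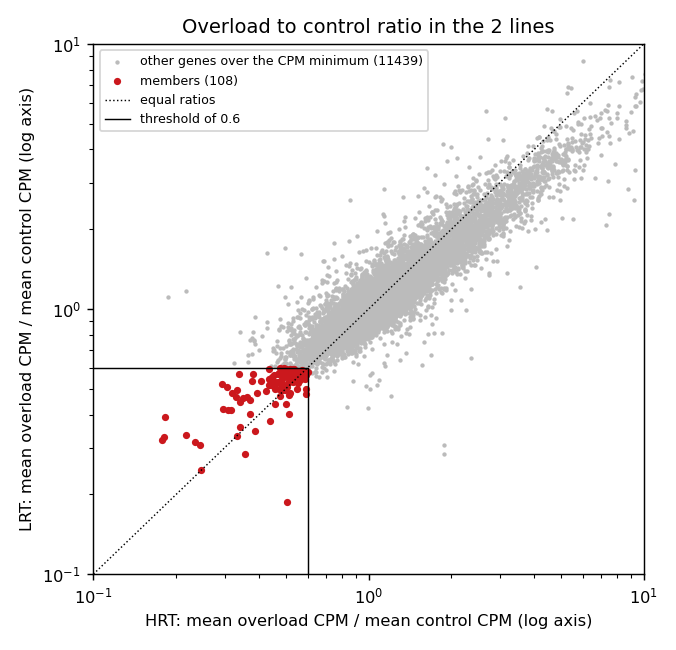
Ratio of mean overload CPM to mean control CPM in HRT (horizontal, log axis) and LRT (vertical, log axis) for the 11547 genes over the CPM minimum, with the 108 reduced genes in red, the threshold of 0.6 as a solid line and equal ratios dotted. The axes leave out 61 genes, and 87 of the 108 red points lie above the dotted line, where the ratio was lower in HRT.

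The set has no gap at its edge. The gene just inside the threshold, ENSRNOG00000033615, had ratios of 0.59996 in HRT and 0.578 in LRT. The nearest gene outside had 0.594 in HRT and 0.60018 in LRT. The size of the set also depends on how libraries are scaled. With CPM scaled by the trimmed mean of M values (TMM), which sets the bulk of genes equal between libraries, the same rule found 345 genes, all 108 among them. On the total-count scale the median tested gene rose by 0.27 in HRT and by 0.22 in LRT (log2), while on the TMM scale it stayed near 0. The median log2 fold change of the 108 genes was −1.32 in HRT and −1.15 in LRT on the TMM scale, and −1.04 and −0.92 on the total-count scale.

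The lowest mean of the 2 ratios belonged to ENSRNOG00000019009. In HRT its CPM had a lowest, median and highest value of 21.9, 26.6 and 29.5 over the 6 control libraries and of 4.97, 5.96 and 9.0 after overload. In LRT these were 32.3, 47.2 and 60.2 in control and 5.48, 11.4 and 21.0 after overload. The overloaded libraries lay below each control library of their line, and the LRT control libraries lay above each HRT control library. The ratio was 0.246 in HRT and 0.247 in LRT, with log2 fold changes on the TMM scale of −2.29 ± 0.263 (SE) in HRT and −2.25 ± 0.257 in LRT.

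ENSRNOG00000016043 came next, with ratios of 0.178 in HRT and 0.321 in LRT. Its CPM ran from 144 to 257 in HRT control (median 167) and from 16.8 to 49.3 after overload (median 31.0). In LRT it ran from 165 to 267 in control (median 187) and from 44.9 to 79.2 after overload (median 62.3). Control levels of the lines overlapped, while 5 of the 6 LRT overload libraries lay above the highest HRT overload library. The log2 fold changes were −2.76 ± 0.229 (SE) in HRT and −1.87 ± 0.221 in LRT.

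**Figure D2:**
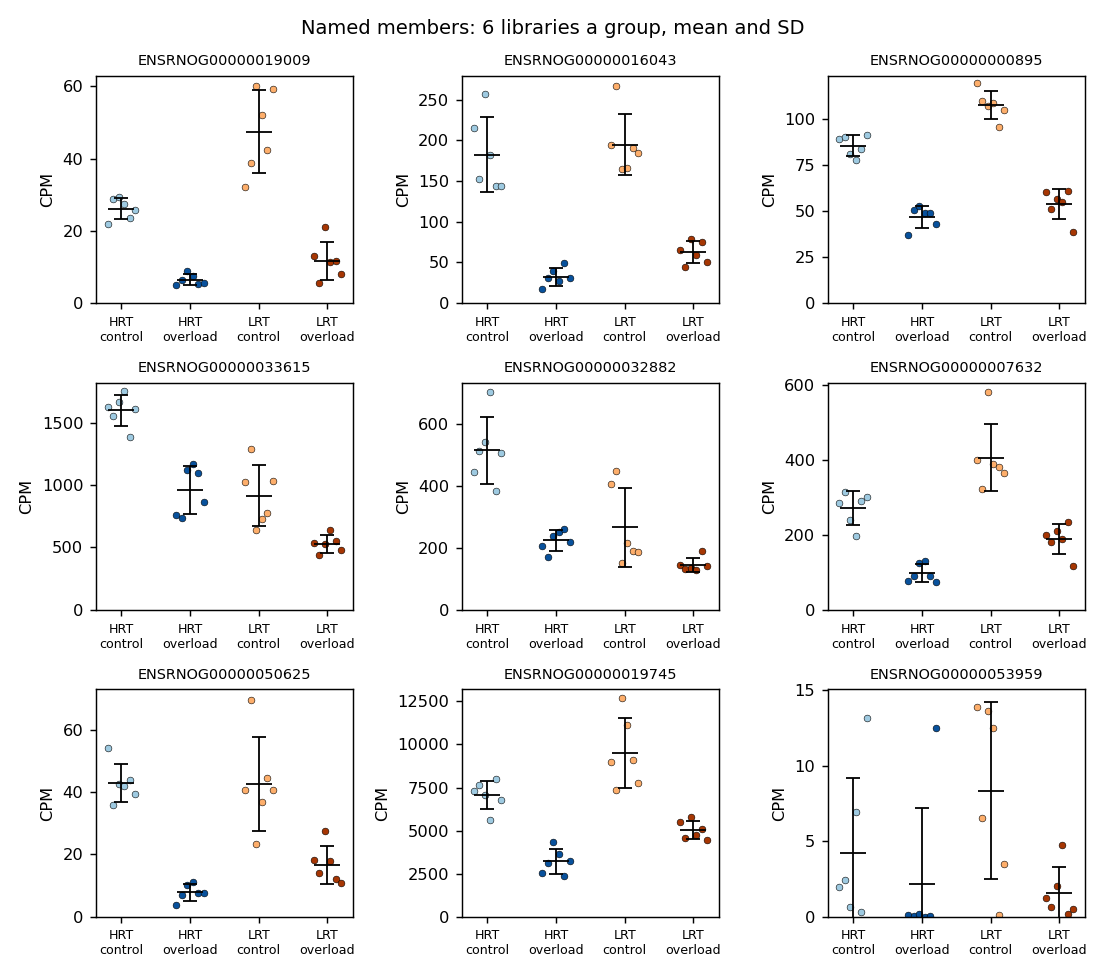
CPM (vertical, linear from 0) of the 9 named reduced genes in each of the 6 libraries of the 4 groups, with the mean and SD as a bar, cut at 0 where it would fall below. ENSRNOG00000019009 shows overloaded libraries below each control library of their line, while ENSRNOG00000053959 shows high and near-zero libraries within groups.

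The rule asks for a lower CPM after overload in each gene, so the summed share of the reduced genes had to fall, and its size is given as a description. In HRT they held 2.64% ± 0.109 (SD, n = 6) of all counts in control and 1.27% ± 0.248 after overload. In LRT the shares were 3.02% ± 0.286 and 1.63% ± 0.193. The overloaded libraries, from 0.944% to 1.62% in HRT and from 1.40% to 1.88% in LRT, all lay below the lowest control library, at 2.45%. A single gene, ENSRNOG00000019745, gave 28.0% of the summed CPM loss in HRT and 32.1% in LRT. It is named because it had the largest loss of reads, seen after the values were known. Its CPM had a lowest, median and highest value of 5619, 7193 and 7968 in HRT control and of 2380, 3186 and 4363 in HRT overload. In LRT these were 7369, 9035 and 12680.1 in control and 4431, 4927 and 5816 after overload. All of its overloaded libraries lay below each control library of their line. The 10 genes with the largest losses gave 68.6% of the loss in HRT and 71.7% in LRT. Without ENSRNOG00000019745 the summed ratio was 0.488 in HRT and 0.544 in LRT, against 0.479 and 0.539 with it.

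The reduced genes covered a wide range of read support. Counts are not divided by gene length, so these levels show how many reads stand behind a gene and do not rank genes by abundance. Control means ran from 2.13 to 8282 CPM with a median of 54.6, against a median of 15.0 for all genes over the CPM minimum, and 6 of the 108 were among the 100 genes with most control reads. The rule found 0.666% of the genes between 2 and 10 CPM, 0.653% of those between 10 and 100, 3.47% of those between 100 and 1000 and 5.32% of those above 1000. It holds every ratio at or below 0.6, so the medians by level are a description. The 29 genes between 2 and 10 CPM had median ratios of 0.447 in HRT and 0.499 in LRT. Between 10 and 100 CPM the 40 genes had 0.491 and 0.525, and between 100 and 1000 CPM the 34 genes had 0.477 and 0.545. The 5 genes above 1000 CPM had 0.542 and 0.565. A ratio at or below 0.33 was met by 13 genes in HRT and 7 in LRT.

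Overloaded libraries differed widely in how far the set had fallen. Each reduced gene's CPM was divided by its mean over the control libraries of the same line, and the median over the 108 genes was taken per library. In HRT overload this median was 0.338 at the lowest, in replicate 1, and 0.567 at the highest, in replicate 3, with a median over the 6 libraries of 0.462. In LRT overload it ran from 0.439 in replicate 2 to 0.618 in replicate 5, with a median of 0.511. Control libraries lay between 0.952 and 1.03. The number of reduced genes at or below 0.6 ran from 64, in replicate 3, to 107, in replicate 1, among the HRT overload libraries. It ran from 49, in replicate 5, to 104, in replicates 2 and 6, among the LRT overload libraries. In control libraries it was 1 to 7. RIN was 8.6 in HRT overload replicate 1 and 9.4 in replicate 3. In LRT overload it was 8.6 in replicate 2 and 8.7 in replicate 5. HRT overload replicate 6 had a RIN of 9.2 and a median of 0.411, and LRT overload replicate 3 had 8.2 and 0.602. The relation of RIN to the fall was not tested.

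**Figure D3:**
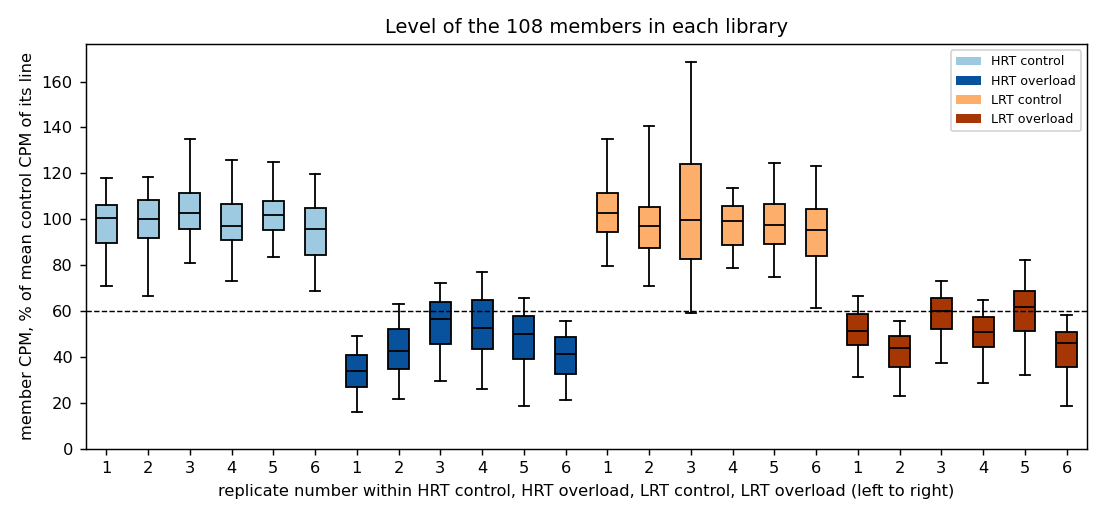
CPM of the 108 reduced genes as a percentage of the mean control CPM of the same line (vertical), for each of the 24 libraries (horizontal), with boxes from the lower to the upper quartile, a line at the median, whiskers from the 5th to the 95th percentile and the threshold of the rule dashed. Every overloaded library sits below each control library at its median, and HRT overload replicate 1 has the lowest median of all.

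The number of overloaded libraries behind each gene's low mean varied. In 14 genes each of the 12 overloaded libraries was at or below 0.6 of its line's control mean, and in 55 genes at least 10 were. The fewest such libraries for any gene was 5. All 12 overloaded libraries were below the line's control mean in 106 genes. The overloaded and control libraries did not overlap for 94 genes in HRT and for 77 in LRT, and 71 genes showed this in both lines. Over all tested genes such a fall without overlap was found in 6.82% in HRT and 4.96% in LRT. The rule used this contrast, so nothing is read from any of these counts. With each of the 24 libraries left out in turn the rule found 91 to 137 genes, and 68 of the 108 were found each time. The fewest were found without LRT overload replicate 2 and the most without LRT overload replicate 5.

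Control libraries differed most among themselves for a gene with a mean control level of 6.29 CPM. ENSRNOG00000053959 is named for the largest mean SD of log2 TMM-scaled CPM within the control groups, seen after the values were known. In HRT control its CPM was 0.319 at the lowest, 2.21 at the median and 13.1 at the highest. In HRT overload 5 libraries lay between 0.000689 and 0.161 CPM and replicate 6 was at 12.5 CPM, near the highest control library. In LRT it ran from 0.0971 to 13.9 CPM in control (median 9.51) and from 0.203 to 4.77 after overload (median 0.949). Control and overloaded libraries overlapped in both lines, and the SE of its log2 fold change was 1.15 in HRT and 1.17 in LRT. The other 8 named genes had SEs under 0.3.

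Within the overloaded groups the reduced genes moved together from library to library. Values were log2 TMM-scaled CPM with each group's mean taken off. Each gene was correlated with the median of the other reduced genes over the 12 overloaded libraries. The median Pearson r was 0.828, r was above 0.5 for 96 of the 108 genes and above 0.9 for 37. The other 16553 tested genes had a median r of −0.105 with the same median, and 26.3% of them were above 0.5 and 29.4% below −0.5. Of these other genes 3.81% were above 0.9 and 2.2% below −0.9. Taken within a single line, the median r was 0.897 in HRT overload and 0.832 in LRT overload. Over the 12 control libraries the median r was 0.240, with 29 genes above 0.5, against 0.00758 and 9.96% for the other genes. These correlations are across libraries that share depth, scaling and RNA quality with all their genes, and are given as a description. The rule compared group means, and the deviations within groups used here are from the same libraries.

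**Figure D4:**
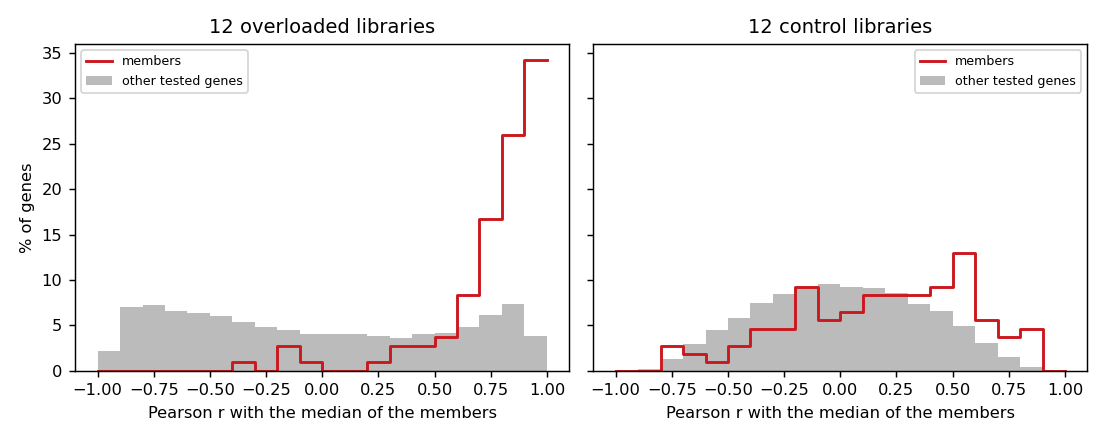
Distribution of Pearson's r between a gene and the median of the reduced genes (horizontal, bins of 0.1) as a percentage of genes (vertical), after removal of group means, over the 12 overloaded libraries (left) and the 12 control libraries (right). The red line of the reduced genes is piled up above 0.5 on the left, with 96 of 108, and spread out on the right, with 29 of 108, while the grey bars of the other tested genes are broad in both.

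The 12 reduced genes at or below an r of 0.5 were mostly thinly covered. Their median control level was 6.19 CPM, against 66.7 for the other 96, and 9 of the 12 were below 10 CPM. In 5 of them r was below 0, the lowest being −0.400. ENSRNOG00000053959 was one of these, at −0.184. The other 8 named genes had r between 0.746 and 0.896.

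The spread between libraries was larger after overload for most of the set. The SD of log2 CPM within a group had a median over the reduced genes of 0.172 in HRT control and 0.451 in HRT overload. For all tested genes it was 0.169 and 0.250. In LRT the reduced genes had 0.247 in control and 0.340 in overload, against 0.196 and 0.214 for all tested genes. The SD was larger in overload than in control for 97 of the 108 genes in HRT and 79 in LRT, against 66.9% and 52.9% of all tested genes. The reduced genes had fewer reads after overload. Neither the part of this nor that of the TMM scaling in the spread was tested.

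Whether the lines differed in these genes in control muscle was asked next. The rule used these libraries, as the control means of its ratios, though not this contrast. In control muscle 4 of the 108 genes passed (edgeR's quasi-likelihood test, Benjamini-Hochberg over all tested genes, adjusted p under 0.05), 2 higher and 2 lower in LRT. That is 3.7% of the set, against 1.97% of all tested genes, of which 1.22% were higher and 0.75% lower in LRT. An unadjusted p under 0.05 was found for 17 genes higher in LRT, against 10% of all tested genes, and for 5 lower, against 6.59%. All LRT control libraries lay above all HRT ones in 8 genes and below them in 1, against 1.75% and 0.9% of all tested genes. ENSRNOG00000019009, the gene with the lowest mean ratio, was at 27.8 ± 3.21 TMM-scaled CPM in HRT and 54.1 ± 14.7 in LRT (SD, n = 6; log2 fold change 0.96 ± 0.246 SE, edgeR adjusted p = 0.0421). ENSRNOG00000000895 ran from 82.0 to 99.9 TMM-scaled CPM in HRT and from 106 to 134 in LRT, without overlap (log2 fold change 0.43 ± 0.113, edgeR adjusted p = 0.0484). ENSRNOG00000033615 ran from 1450 to 1851 TMM-scaled CPM in HRT and from 755 to 1383 in LRT, so that each LRT library lay below each HRT library (log2 fold change −0.72 ± 0.173, edgeR adjusted p = 0.0288). ENSRNOG00000032882 ran from 400.1 to 742 TMM-scaled CPM in HRT and from 179 to 482 in LRT, with overlap (log2 fold change −0.87 ± 0.221, edgeR adjusted p = 0.0386).

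These 4 control differences sat close to the threshold. Without LRT control replicate 3, which stood apart, 1 of the 108 genes passed, lower in LRT. The count was 0 without HRT control replicate 3, 4 or 6 or LRT control replicate 4, and 1 without HRT control replicate 1 or 2 or LRT control replicate 6. It was 2 without replicate 5 of either control group, HRT overload replicate 5 or 6, or LRT overload replicate 1 or 4, and 7 without LRT control replicate 2. Among all tested genes, 328 passed with every library kept. Dropping HRT control replicate 4 left 154, the lowest, and dropping LRT control replicate 2 gave 495, the highest. A fit of the 2 control groups alone passed 9 of the 108, against 3.18% of all genes tested in it. Over 34 other settings ENSRNOG00000033615 passed in 25, ENSRNOG00000032882 in 22, ENSRNOG00000019009 in 19 and ENSRNOG00000000895 in 11, with the direction the same in each. As a whole the set leaned towards higher levels in LRT control, with 80 of 108 genes above 0 and a median of 0.14 on the log2 scale, against 51.2% and 0.01 for all tested genes. Scaled by library totals alone, 63 of the 108 were above 0 with a median of 0.04, and the median of all tested genes was −0.09. The control means are part of the ratios that chose the genes, so this lean is not independent of the rule.

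After overload most reduced genes that separated the lines were higher in LRT. The rule used these libraries, as the overload means of its ratios, though not this contrast. The counts and the lean given below are therefore not independent of the rule. Of the 108 genes 17 passed (edgeR adjusted p between 0.00586 and 0.0420), 16 higher and 1 lower in LRT. That is 15.7% of the set, against 3.09% of all tested genes, of which 1.6% were higher and 1.49% lower in LRT. An unadjusted p under 0.05 was found for 44 genes higher in LRT, against 9.64% of all tested genes, and for 2 lower, against 12.6%. The 16 genes were higher by 0.61 to 1.21 on the log2 scale, with a median of 0.93. Over the whole set the median was 0.31, against −0.01 for all tested genes, and 100 of the 108 were above 0, against 48.3%. Scaled by library totals alone, 88 of the 108 were above 0, 21 passed higher and 1 lower. Of all 16661 tested genes, 225 passed higher and 1928 lower on that scale, and their median was −0.15. The libraries of the lines did not separate fully for any of the 108 genes in either direction, against 0.864% (LRT higher) and 0.696% (LRT lower) of all tested genes.

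ENSRNOG00000007632 had the smallest p of the 16. After overload it ran from 58.2 to 128 TMM-scaled CPM in HRT (median 77.0) and from 115 to 227 in LRT (median 192). The lowest LRT library lay below the 2 highest HRT libraries, and the other 5 lay above all HRT libraries (log2 fold change 1.06 ± 0.198 SE, edgeR adjusted p = 0.00586). It passed in each of 34 other settings, with log2 fold changes from 0.94 to 1.20 and edgeR, limma-voom or DESeq2 adjusted p from 3.21e-05 to 0.0413. In control muscle its line difference was 0.68 ± 0.196 (edgeR adjusted p = 0.0711). ENSRNOG00000016043 was at 28.5 ± 11.1 TMM-scaled CPM in HRT overload and 60.2 ± 14.5 in LRT overload (SD, n = 6; log2 fold change 1.08 ± 0.218 SE, edgeR adjusted p = 0.0106), and in control muscle its line difference was 0.18 ± 0.213 (edgeR adjusted p = 0.731).

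The gene lower in LRT was ENSRNOG00000033615, at 849 ± 251 TMM-scaled CPM in HRT overload and 511 ± 93.8 in LRT overload (SD, n = 6; log2 fold change −0.73 ± 0.173 SE, edgeR adjusted p = 0.0245). It passed in 29 of 34 other settings, and its line difference in control muscle is given above. It and ENSRNOG00000019009 (log2 fold change after overload 1.00 ± 0.260, edgeR adjusted p = 0.0399) were the 2 genes that passed in both states. All 16 genes higher in LRT overload also had a line difference above 0 in control muscle, with a median of 0.50.

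**Figure D5:**
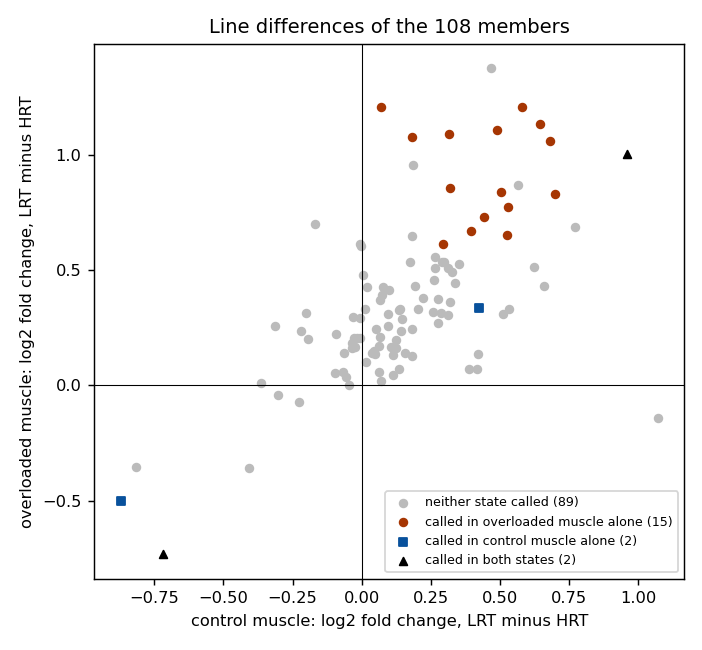
Log2 fold change between the lines, LRT minus HRT, of the 108 reduced genes in control muscle (horizontal) and overloaded muscle (vertical), with colour and shape marking genes with an edgeR adjusted p under 0.05 in overloaded muscle alone (15), control muscle alone (2), both (2) or neither (89). Most points lie above the horizontal zero line, 100 of 108.

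The count of 17 depended on the libraries and on the fit. A model of the 2 overloaded groups alone passed 1 of the 108, ENSRNOG00000007632, against 0.707% of all genes tested in it. Leaving out single libraries gave 5 (without LRT overload replicate 3) to 35 genes (without HRT overload replicate 3 or 4 or LRT overload replicate 2). Counts of 7 to 11 were found without HRT overload replicate 1, 2 or 6 or LRT overload replicate 1 or 5. These shifts were not particular to the reduced genes. Among all tested genes, 514 passed with every library kept. Dropping LRT overload replicate 3 left 171, the lowest, and dropping HRT overload replicate 3 gave 1647, the highest. With RIN as a covariate 20 of the 108 passed, all higher in LRT. Of all 16661 tested genes 785 passed in that fit, 376 of them higher in LRT.

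The sizes of the falls themselves did not pass a test of the difference between lines for any reduced gene. In the interaction of line and overload 0 of the 108 passed in edgeR, against 0.048% of all tested genes (0.024% in each direction), with a smallest adjusted p of 0.207. DESeq2 and limma-voom also passed 0 of the 108. Of all 16661 tested genes DESeq2 passed 140 and limma-voom 2. An unadjusted p under 0.05 was found for 9 genes, all with the smaller fall in LRT, which is 8.33% of the set. Over all tested genes it was 13.6%, with 5.79% above 0 and 7.8% below 0. The difference, LRT minus HRT, was above 0 for 89 of the 108 genes, with a median of 0.19, against 46.5% and −0.02 for all tested genes. The rule used both falls, so these counts are not independent of it.

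The smallest interaction p belonged to ENSRNOG00000050625. Its TMM-scaled CPM went from 45.6 ± 6.39 (SD, n = 6) to 6.98 ± 2.92 with overload in HRT, and from 47.9 ± 15.3 to 16.1 ± 6.18 in LRT. The falls differed by a log2 value of 1.14 ± 0.370 (SE), with an edgeR adjusted p of 0.207. For ENSRNOG00000016043 it was 0.90 ± 0.304 (edgeR adjusted p = 0.217). Over 33 other settings neither gene passed, with differences from 0.93 to 1.32 and from 0.75 to 1.07. For ENSRNOG00000019009, with the lowest mean ratio, the difference was 0.04 ± 0.353 (edgeR adjusted p = 0.972).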

How the data were processed

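Sequencing libraries of 24 plantaris samples were prepared from total RNA with an Illumina TruSeq kit, per the labels' protocols. The authors deposited 1 table of estimated counts per Ensembl gene, not normalized. Quantification used Salmon 0.9.1, with Rnor_6.0 and rn6 listed as builds, per the submitters' processing notes. Its annotation and settings: not given in the sources used here. Salmon splits reads shared by similar genes, which leaves near-identical copies uncertain. Groups came from sample titles.

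Counts were rounded, filtered with filterByExpr (16661 of 31998 genes kept), scaled by TMM and fitted with edgeR 4.0.16 (R 4.3.3; quasi-likelihood, robust, 1 coefficient per group, all libraries). Standard errors were taken as |log2 fold change| divided by the root of the F statistic. Overload contrasts are described only, since they chose the genes. Line contrasts and the interaction were tested, with an adjusted p threshold of 0.05. The fits were tested on simulated counts. Library totals were alike, and low-count genes are less precise. DESeq2 1.42.0 and limma-voom (limma 3.58.1) were among the alternatives. No pair of libraries in a group was a duplicate (60 pairs, lowest chi-square per degree of freedom 11.9). Plots used matplotlib 3.10.9.

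The genes, lists and tests were chosen with earlier results of these data known. Named genes are the 2 with the lowest mean ratio and at most 2 per direction in each line comparison by p, plus 2 named after their values were seen. Lists of pathway and cell type genes by symbol were not used, since 0 IDs matched the RefSeq table of 47357 genes (GRCr8).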

Additional observations from a re-analysis of the deposited data

Results flagged for a closer look

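In 48 groups of 6 libraries, 4 had a library far from the other 5 by Dixon's test, and chance flags about 1 group in 20. HRT control replicate 2 had 5 reduced genes at or below 0.6 of the line's control mean, against at most 2 in the other HRT control libraries. ENSRNOG00000053959 was at 9.87 TMM-scaled CPM in HRT overload replicate 6, against at most 0.144 in the other 5. ENSRNOG00000016043 was at 287 TMM-scaled CPM in LRT control replicate 2, and the next library was at 217. ENSRNOG00000007632 was at 687 TMM-scaled CPM in LRT control replicate 3, and the next library was at 451.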

How the results depend on the processing

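The rule found 345 genes with TMM-scaled CPM, 30 with a ratio of at most 0.5 and 303 with at most 0.7. Other choices gave 87 to 133, and leaving out single libraries gave 91 to 137. With library totals alone the median log2 fold change of the set was −1.04 in HRT and −0.92 in LRT. In control muscle 8 genes of the set passed with DESeq2, 1 with no low-count filter, 1 with the replicate block, 1 with the replicate block and RIN, 9 in a fit of the 2 groups alone and 0 to 7 with single libraries left out. Over all tested genes DESeq2 passed 619, against 328 in the fit used above. No low-count filter gave 206, the replicate block 292, the replicate block and RIN 278, and the 2 groups alone 491. Dropping single libraries gave 154 to 495 over all tested genes. In overloaded muscle 28 genes of the set passed with DESeq2, 11 with the replicate block and RIN, 1 in a fit of the 2 groups alone and 5 to 35 with single libraries left out, while the replicate block alone gave 24. Over all tested genes DESeq2 passed 1093, against 514 in the fit used above. The replicate block and RIN gave 289, the 2 groups alone 115 and the replicate block alone 587. Dropping single libraries gave 171 to 1647 over all tested genes. In the interaction 0 genes of the set passed in each of 33 settings. Over all tested genes DESeq2 passed 140 in the interaction, against 8 in the fit used above. Dropping single libraries gave 1 to 25 over all tested genes. The cause of these shifts was not tested, and some of these fits had fewer samples. The labels do not say that a replicate number marks a shared animal or batch, and same-numbered libraries of different groups correlated at −0.127 to 0.367. Of the 6 HRT and LRT pairs, 0 were above 0.1 in control and 3 in overload (median 0.118), so the numbers were not taken to pair libraries, which asked for each pair above 0.1. Of 6 HRT overload libraries 2 correlated best with their own number in LRT overload. Genes with few reads limit precision: 29 of the 108 had under 10 CPM in control.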
